A study of Mus musculus with 10 samples.

Results

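The cells described here were picked on day 4 of a chemical reprogramming course, in which mouse embryonic fibroblasts (MEFs) were cultured toward cells resembling extraembryonic endoderm (XEN) cells. They were taken as the cells whose names start with d4 and that had at least 4000 detected genes, without spike-in RNAs. This kept 77 of the 88 day 4 cells, out of 670 cells kept of 808 in the whole course. The highest number of genes in a removed cell was 3956, and the lowest in a kept cell was 4106.

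The day 4 cells had received the cocktail C6FAE. It combines CHIR99021 (C, an inhibitor of the kinase GSK3) and RepSox (6, an inhibitor of the TGF-beta receptor kinase ALK5). It also holds Forskolin (F, an activator of adenylyl cyclase) and AM580 (A, a retinoic acid receptor agonist). The last part is EPZ004777 (E, an inhibitor of the histone methyltransferase DOT1L). Cells of d0, used below for comparison, are the starting MEFs before the cocktail. The labels name only C6FAE, whereas the culture methods list it with valproic acid added. MEFs are a mixed primary culture of the embryo's connective tissue, and the medium held bFGF and serum and was renewed every 4 days. Cells were picked by hand after digestion, and their RNA was counted by unique molecular identifiers (UMIs, random tags by which copies of the same RNA molecule are counted once). The 10 sequenced samples of the series are batches of cells with no stated difference in treatment.

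Cell names hold a day and a running number, from 1 to 88 at day 4, and no batch. The day 4 cells were compared by this number, as cells 1 to 48 (40 of 48 kept) and cells 49 to 88 (37 of 40 kept). What the number stands for is not stated, so a plate, a library, a culture and the number range cannot be told apart. The table was treated as 1 sample, no test was made between ranges or days, and every difference below is a description of these cells.

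Kept cells 1 to 48 had a median of 778319 UMIs (23084 to 4012982) and 8299 detected genes, and cells 49 to 88 a median of 322100 UMIs (32275 to 1030767) and 7233 genes. Spike-in RNAs made up a median of 2.58% of the counts in the first range and 4.94% in the second. Every cell was therefore thinned to 50000 UMIs, which 39 cells of the first and 34 of the second range allowed, and levels below are thinned UMIs per cell. At this depth the order of detected genes turned, with medians of 5095 genes in the first range and 5541 in the second. *Malat1*, a nuclear non-coding RNA, had a mean of 1861 UMIs in cells 1 to 48 and 946 in cells 49 to 88. These values move with the ranges, and their part in the differences below was not tested.

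Fibroblasts are known by the collagens and proteoglycans that they secrete, and they also release chemokines, the small proteins that attract leukocytes. Cyclic AMP, which Forskolin raises, acts through the transcription factor CREB, known to switch on genes of secreted peptides such as somatostatin, VIP and CGRP in neurons and endocrine cells. Inhibition of GSK3 stabilizes beta-catenin, the effector of Wnt signaling, and retinoic acid receptors induce the enzymes and binding proteins that handle retinoic acid itself.

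The 5 genes used as a label for day 4 did not mark its cells as a whole. *Krt15*, a keratin of basal epithelia, had UMIs in 9 of 39 cells of the first range, with a highest level of 23 UMIs, and in 0 of 34 cells of the second, which at this depth allows a share of cells with a UMI, not of cells expressing the gene, of up to 8.82% (3 of 34). *Mmp13*, a collagenase, had UMIs in 1 cell of each range, with 5 UMIs in cell 45 and 48 UMIs in cell 77. *Ppbp*, a platelet chemokine, was found in 5 and 2 cells, with highest levels of 17 and 1 UMIs. *Vip*, which encodes vasoactive intestinal peptide, was found in 12 and 1 cells, with highest levels of 64 and 1 UMIs. *Calca*, the gene of calcitonin and the peptide CGRP, was the most widespread, with UMIs in 32 of 39 cells of the first range (median 2, highest 254) and 7 of 34 of the second (median 0, highest 71). None of the 5 passed the call rule between the ranges. For comparison, *Col1a1* had UMIs in 72 of the 73 cells, and *Ptprc* and *Pecam1*, which define blood and endothelial cells, had 0 UMIs in all 73.

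A gene was called when its mean, with a pseudocount of 0.5 UMIs, differed at least 2-fold between the ranges and the cell of the higher range held more in at least 80% of the 1326 pairs of cells. Of 6165 genes with a mean of at least 1 UMI in either range, 53 (0.86%) were called higher in cells 1 to 48 and 43 (0.697%) lower. The pair condition set these counts, since 353 genes were at least 2-fold higher and 461 at least 2-fold lower in mean. No gene separated the ranges fully. A gene with a mean under 1 UMI in 1 range could be tested only through its level in the other. This held for *Igfbp5*, *Itih5* and *Ackr3*, tested through the first range. It also held for *Dusp6*, *Tmod2* and *Plxdc2*, tested through the second, and for further called genes. The median log2 ratio of all tested genes was -0.13, and scaling by the median of ratios, which takes off a shift of -0.20 and leaves a median of 0.04, gave 85 genes higher and 16 lower. Scaling by spike-in RNAs (a shift of -0.63 in the median log2 ratio) gave 366 higher and 9 lower. It used all UMIs of the 77 kept cells, without thinning. Depth was therefore not equal under it, and the parts of depth and of scaling cannot be told apart. Of the 53 genes called higher, all 53 were called under both of these scalings. Of the 43 called lower, 16 were called under the first and 3 under the second. For counts of called list members below, the shares of all genes to compare are 0.86% higher and 0.697% lower.

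**Figure D1:**
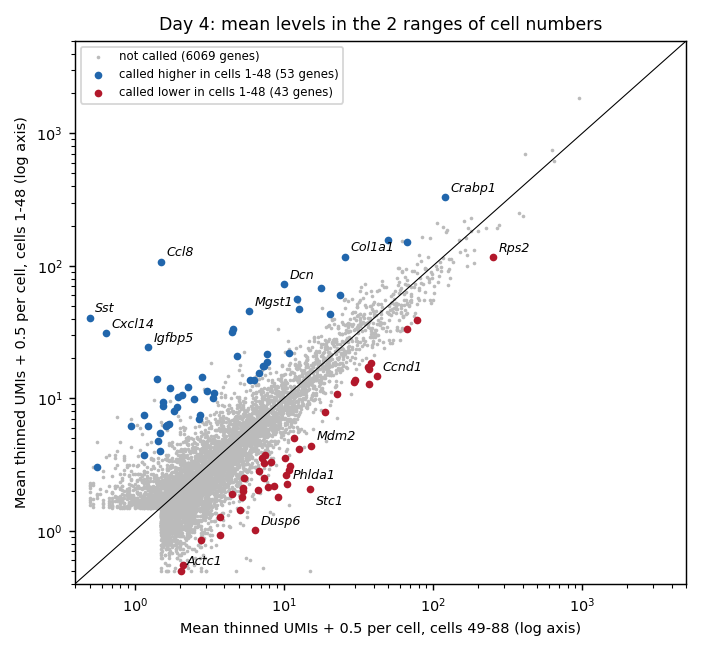
Mean level of each of 6165 genes at day 4, in thinned UMIs + 0.5 per cell on log axes, with cells 49 to 88 on the horizontal and cells 1 to 48 on the vertical axis; the line marks equal levels. Blue points are the 53 genes called higher in cells 1 to 48, with *Sst*, *Ccl8* and *Cxcl14* farthest from the line, and red points the 43 called lower.

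Connective tissue genes were the most frequent among those called higher in cells 1 to 48. Of 18 tested fibroblast markers 7 were called higher and 0 lower, against 0.86% of all genes, and the median log2 ratio of the list was 0.80. The members were *Lum* and *Dcn*, proteoglycans that bind collagen fibrils, the collagens *Col1a1*, *Col1a2*, *Col3a1* and *Col5a2*, and *Pdgfra*, a receptor of platelet-derived growth factor. *Dcn* had a lowest, median and highest level of 3, 59 and 247 UMIs in the first range and 0, 1 and 67 in the second. Its means were 72.3 UMIs and 9.59 UMIs (8.58 to 10.7 by counting error at 95%), a 7.21-fold difference. The ranges overlapped, with 90.2% of cell pairs in this direction.

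*Lum* went from 2 to 228 UMIs in the first range with a median of 15, and from 0 to 55 with a median of 0.5 in the second. *Col1a1*, the main chain of type I collagen, went from 12 to 333 UMIs with a median of 96 in the first range, and from 0 to 63 with a median of 20 in the second. Its partner chain *Col1a2* had medians of 42 and 5.5 UMIs. *Col1a1* had UMIs in 33 of 34 cells of the second range and *Col1a2* in 29, and both had them in all 39 of the first. With the pseudocount of 0.5 UMIs the means differed by 4.57-fold for *Col1a1* and 4.55-fold for *Col1a2*. Of the fibroblast transcription factors, *Twist1* had means of 17.4 and 9.29 UMIs (a log2 ratio of 0.87) and *Twist2* of 29.2 and 17.3 (0.74). *Prrx1* had means of 10.7 and 9.97 (0.10) and *Osr1* of 2 and 3.15 (-0.54), and none of these was called. Cell 77 alone held 82.2% of the *Osr1* UMIs of the second range. The other cells of that range had a mean of 0.654% of its level, and the first range 2.27%, so the direction of *Osr1* rests on that cell. *Vim*, the intermediate filament of fibroblasts, had means of 27.2 and 59.9 UMIs, with 20.7% of pairs higher in the first range, just short of the call in the other direction.

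Chemokines were also called higher in cells 1 to 48. Of 21 genes on the list 5 could be tested, and 3 of these were called higher, against 0.86% of all genes. They were *Cxcl14*, *Ccl7* and *Ccl8*. With means of 30.6 and 0.147 UMIs, *Cxcl14* could be tested only through its level in the first range. *Cxcl14*, a chemokine of skin and mucosa, was the gene that separated the ranges best, with 98.8% of pairs. It had UMIs in 39 of 39 cells of the first range (1 to 330 UMIs, median 4) and in 3 of 34 of the second (highest 3 UMIs). *Ccl7*, which attracts monocytes, had UMIs in 39 of 39 cells (1 to 401, median 6) and in 14 of 34 (highest 60, median 0). The highest cells of the first range held 330 and 265 UMIs of *Cxcl14* and 401 and 240 of *Ccl7*. The part of their RNA in the low counts of the other cells was not tested. *Ackr3*, an atypical receptor that takes up the chemokine Cxcl12, was called higher as well, with medians of 6 and 0 UMIs and means of 7.05 and 0.647.

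*Ccl8*, another attractant of monocytes, differed 71.5-fold in mean, but cell 45 alone held 90% of the UMIs of the first range (3747 of its 50000). The other 38 cells of this range had a mean of 10.9 UMIs, the range as a whole had a median of 4, and 37 of 39 cells had a UMI. The other cells held a mean of 0.292% of the level of cell 45, and the part of that cell's RNA in their counts was not tested. In the second range 6 of 34 cells had one, with a highest level of 16. *Ccl7* was highest in the same cell 45, at 401 UMIs. Both genes lie on chromosome 11 (mm9 81859214 to 81861027 for *Ccl7* and 81928687 to 81930301 for *Ccl8*). Cell 45 also held 178 UMIs of *Angptl7*, 336 of the small heat shock protein *Cryab* and 130 of the stromelysin *Mmp3*.

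Other secreted or enzyme genes with the largest ratios in this direction were spread over most cells. *Igfbp5*, which binds insulin-like growth factors, had medians of 7 and 0 UMIs (highest 110 and 7). *Mgst1*, a glutathione transferase of membranes, had UMIs in 39 of 39 and 22 of 34 cells, with medians of 26 and 1. *Itih5*, of the family that links proteins to hyaluronan, had medians of 3 and 0 UMIs. *Tmem132cos*, a transcript opposite to *Tmem132c*, had medians of 5 and 1 UMIs, and whether counting used strand is not stated, so its reads cannot be told apart from those of its partner. All of these kept a log2 ratio of at least 2.61 without the highest cell of each range.

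Retinoic acid handling and matrix genes of the TGF-beta list also leaned this way. Of 12 tested retinoic acid genes 2 were called higher and 0 lower, against 0.86% and 0.697% of all genes. *Crabp1*, which binds retinoic acid in the cytoplasm, was among the most abundant genes, with 67 to 767 UMIs (median 308) in the first range and 11 to 791 (median 64.5) in the second. *Cyp26b1*, which degrades retinoic acid, had medians of 4 and 0 UMIs. Of 14 tested TGF-beta genes 2 were called higher, against the same 0.86% of all genes. They were *Thbs1* (medians of 4 and 1), which encodes the matrix protein thrombospondin, and *Col1a1*. Of 15 contractile genes 1 was called, *Myl9*, a myosin light chain, with medians of 21 and 1.5 UMIs.

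Among the genes called lower in cells 1 to 48, of which 3 of 43 were also called under spike-in scaling, was *Dusp6*, a phosphatase that acts on ERK and is induced by it. It had a median of 0 UMIs (highest 5) in the first range and 3 (highest 26) in the second, with means of 0.513 (0.313 to 0.792) and 5.91 (5.12 to 6.79). *Phlda1*, a growth factor-induced gene, was found in 20 of 39 and in 34 of 34 cells, with medians of 1 and 8.5 UMIs. *Ier2*, an immediate early gene, had medians of 1 and 7 UMIs. *Stc1*, the secreted glycoprotein stanniocalcin, had the largest ratio, with means of 1.56 and 14.5 UMIs. A single cell, number 19, held 67.2% of its UMIs in the first range, and its share of pairs lay at the limit of the call.

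*Ckb* (brain creatine kinase) had medians of 1 and 5 UMIs, *Slc6a6* (the taurine transporter) of 0 and 7, and *Cd24a* (a surface glycoprotein) of 0 and 4. *Mrps6*, a protein of the mitochondrial ribosome, had medians of 1 and 7 UMIs. *Actn4*, an actin crosslinker, had UMIs in all 34 cells of the second range, with medians of 2 and 9. *Tmod2*, which caps actin filaments, and *Plxdc2*, a membrane protein, were called with medians of 0 in the first range and 2 and 1 UMIs in the second. *Actc1*, cardiac actin, had 0 UMIs in all 39 cells of the first range. In the second it had UMIs in 23 of 34 cells, of which cell 49 held 30 UMIs and the next highest cell 2.

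Proliferation genes gave a broad shift and few calls. *Ccnd1* (cyclin D1), on the Wnt list, had 0 to 95 UMIs with a median of 9 in the first range and 1 to 158 with a median of 27.5 in the second, and it was the only 1 of 14 tested Wnt genes that was called. Under spike-in scaling *Ccnd1*, *Ier2* and *Gtse1* were below 2-fold. Of 27 tested S phase genes 26 had a lower mean in cells 1 to 48, with a median log2 ratio of -1.06, and 0 were called in either direction. For lists, a scaling was applied only as its 1 shift of all genes, taken from the thinned ratios. The spike-in shift of -0.63 left 20 of the 27 lower. Of 36 tested G2/M genes 25 were lower in mean, and 1 was called, *Gtse1* (means of 0.949 and 4.62). After the shift of the median of ratios 18 were lower, and after the spike-in shift 10. The share of cells in division differed less: 10 of 39 cells (25.6%) and 11 of 34 (32.4%, with an interval of 17.4 to 50.5%) had at least 10 UMIs of *Mki67*, *Top2a* and *Cdk1* together. These genes were taken after their values were seen, and 6 and 4 cells lay between 5 and 20 UMIs. Without the cycling cells 54 genes were called higher, 44 of them among the 53, and 53 lower, 29 of them among the 43.

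Of 11 tested cell cycle inhibitors and p53 targets 2 were called lower in cells 1 to 48, against 0.697% of all genes. The list's median log2 ratio was -0.46, or 0.17 after the spike-in shift. *Mdm2*, the ubiquitin ligase of p53, had medians of 2 and 13 UMIs (highest 15 and 40), and *Ccng1*, cyclin G1, of 13 and 27 (highest 30 and 67). Of 26 ribosomal protein genes 25 were lower in mean, and 3 were called. Their median log2 ratio was -0.37, which the spike-in shift turned to 0.26. *Rps2* had 29 to 271 UMIs with a median of 111 in the first range and 82 to 393 with a median of 249 in the second. *Rplp1* had medians of 32 and 66.5 UMIs, and *Rpl32* of 38 and 77.5. Under each scaling by other genes or spike-ins these 3 and *Ccng1* were under 2-fold. Ribosomal genes have many near-identical pseudogenes, and how reads were shared among copies is not stated.

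**Figure D2:**
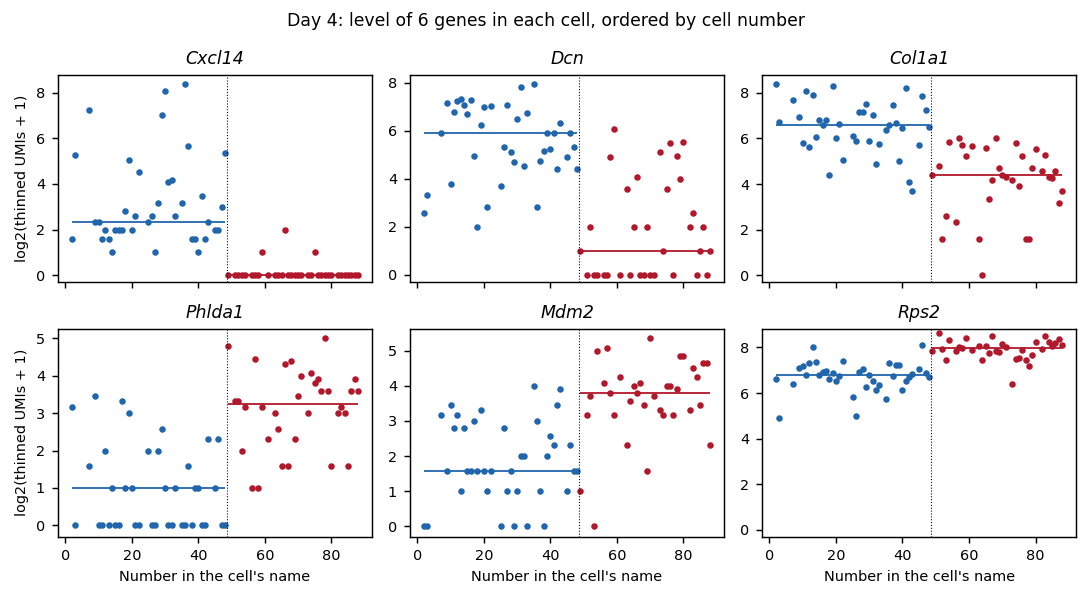
Level of *Cxcl14*, *Dcn*, *Col1a1*, *Phlda1*, *Mdm2* and *Rps2* in each of the 73 day 4 cells, as log2(thinned UMIs + 1), against the number in the cell's name; lines are the medians of cells 1 to 48 (blue) and 49 to 88 (red). Levels differ across the dotted line between the ranges and overlap, with 98.8% of pairs for *Cxcl14* and 90.2% for *Dcn*.

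Medians over blocks of numbers are given for a few of the called genes. In the 4 blocks 1 to 12, 13 to 24, 25 to 36 and 37 to 48 the median of *Col1a1* was 122, 95.5, 82 and 89 UMIs, and in the 3 blocks 49 to 60, 61 to 72 and 73 to 88 it was 27, 19.5 and 19. *Rps2* had block medians of 81 to 118 UMIs in the first range and 246 to 252 in the second. *Dcn* had block medians of 37 to 116 UMIs in the first range, all above the 0 to 3 of the second. *Ccnd1* differed along the numbers as well, with block medians of 1, 12.5, 11 and 9 UMIs in the first range and 19, 27.5 and 38 in the second. The original depth moved with the ranges too. Among cells of 200000 to 800000 UMIs, which left 14 and 22 cells with median depths of 511918 and 403752, 83 genes were called higher and 124 lower, and these held 46 of the 53 and 31 of the 43.

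Other lists gave few or no calls. The list of immediate early and handling stress genes had a summed median of 107 UMIs per cell in the first range and 179.5 in the second. Of its 10 tested members 9 were lower in mean (5 after the spike-in shift), and only *Ier2* was called. NRF2 and glutathione genes (summed medians of 57 and 97.5 UMIs), oxidative phosphorylation (992 and 1005), glycolysis and hypoxia (238 and 336), amino acid and ER stress response, interferon response, cytokines, metalloproteinases, XEN markers and the bone, tendon and fat list had 0 called members in either direction. Keratins and epithelial junction genes had 0 called members of 7 tested, with summed medians of 2 and 14 UMIs. *Perp*, a member chosen after its values were seen, had a mean of 10.3 UMIs in the second range. In that range 12 of the 22 listed genes had 0 UMIs in all cells. Of the skeletal muscle list only *Actc1* was called, of 3 tested. Blood and macrophage genes summed to at most 3 UMIs in a cell of the first range and 6 in the second, and endothelial genes to at most 10 and 8. Neural and glial genes summed to at most 8 UMIs in the first range and to 85 in the second, while their medians were 0 and 1.

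Set beside the days around it, cells 1 to 48 had the fewest called genes against d6p and cells 49 to 88 against d3. With the same call rule, cells 1 to 48 differed from d3 in 146 of 6046 genes (2.41%) and from d5 in 86 of 6282 (1.37%). Cells 49 to 88 differed from d3 in 37 of 6169 (0.6%) and from d5 in 42 of 6370 (0.659%). Further days were added after these values were seen. Cells 1 to 48 differed from d2 in 187 genes (3.11%), from the day 6 group, named d6p, in 5 of 5961 (0.0839%), and from d8 in 14 (0.238%). Cells 49 to 88 differed from d2 in 49 genes (0.803%), from d6p in 118 (1.87%) and from d8 in 160 (2.54%).

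The 5 genes called between cells 1 to 48 and d6p were *Acta2* (smooth muscle actin, means of 72.7 and 21.6 UMIs), *Spp1* (osteopontin, 0.846 and 18.7), *Ibsp* (bone sialoprotein, 4.33 and 40.2), *Col18a1* (a basement membrane collagen, 7.67 and 29.5) and *Txndc5* (an enzyme of protein folding, 5.10 and 19). The number of cells differed, from 35 at d5 to 82 at d2, and d6p comprised 81 cells. The numbering of d3 and d5 cells ends within the first range, so no second range exists there to compare.

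The mean profiles of the other days were also compared with each day 4 cell, by Pearson correlation of log2(UMIs + 1) across 5461 genes, which describes likeness and shares depth but no cells. In the first range 22 cells were nearest to d6p, 11 to d8, 5 to d2 and 1 to d5. In the second range 17 were nearest to d2, 9 to d3, 5 to d5 and 3 to d6p. The margin between the better of d6p and d8 and the better of d2 and d3 was small, with medians of 0.038 and -0.041 in correlation. Between 2 day 4 cells the median correlation was 0.638 within the first range, 0.636 within the second and 0.602 between them, so that the ranges were about equally varied inside.

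**Figure D3:**
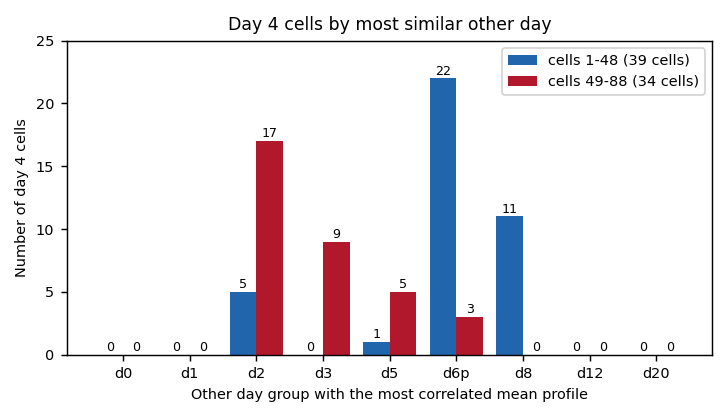
Number of day 4 cells, on the vertical axis, whose profile correlated best with the mean profile of each other day group, on the horizontal axis, for 39 cells numbered 1 to 48 (blue) and 34 numbered 49 to 88 (red). Of the first, 33 fell to d6p or d8, and of the second, 31 fell to d2, d3 or d5.

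The genes called between the ranges were also compared with each day's mean. Of the 53 genes higher in cells 1 to 48, 48 had a d6p mean nearer to the first range and 5 nearer to the second, whereas for d3 the split was 15 and 38. Of the 43 lower genes 37 had a d6p mean nearer to the first range, and for d3 the number was 11. *Col1a1* had means of 62.0 UMIs at d0, 13.4 at d2, 27.8 at d3, 57.4 at d5, 170.5 at d6p and 254.8 at d8. The 117 UMIs of cells 1 to 48 lay between d5 and d6p, and the 25.2 of cells 49 to 88 near d3. *Mgst1* stood at 7.81 UMIs at d3, 10.9 at d5 and 79.5 at d6p, against 45.1 and 5.38 in the ranges of day 4. *Ccnd1* went the other way, with 34.0 UMIs at d2, 25.5 at d3, 16.1 at d5 and 7.99 at d6p, against 14.2 and 41.5. *Cxcl14* had means of at most 1.54 UMIs at d1, d2, d3 and d5 and of 47.8 at d8. *Stc1* did not follow this order, with 0.865 UMIs at d3, 10.0 at d6p and 168.2 at d12, against 1.56 and 14.5.

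**Figure D4:**
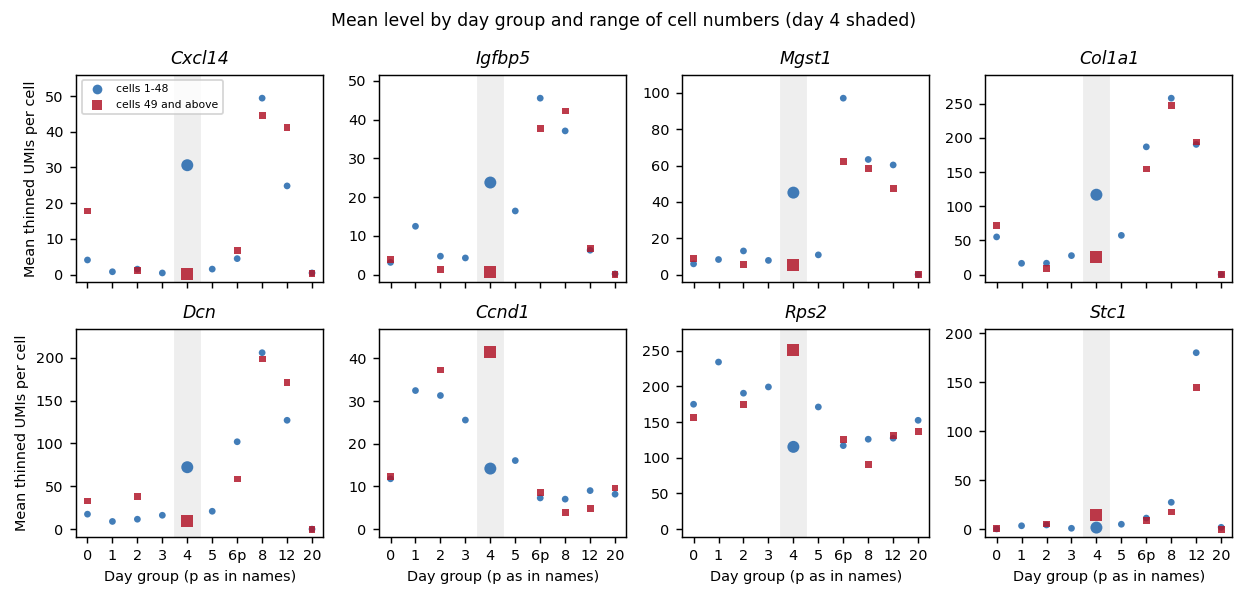
Mean thinned UMIs per cell of 8 genes, on the vertical axes, by day group on the horizontal axes, with cells 1 to 48 as blue circles and cells 49 and above as red squares; larger symbols on the shaded band are day 4. At day 4 *Col1a1* stood at 117 and 25.2 UMIs in the ranges, and at d6p at 186.9 and 154.5.

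A split of this size by cell number was not general. Between cells 1 to 48 and those with higher numbers, 3 genes were called at d0 (0.0519%), 10 at d2 (0.171%), 0 at d6p (0%), 2 at d8 (0.0327%) and 0 at d12 (0%). The exception was d12c, cells of picked colonies, with 519 genes (8.08%). Depth also differed between the ranges on other days, with medians of 721693 and 1254668 UMIs at d2 and 691720 and 359125 at d8. The log2 ratio of *Col1a1* between the ranges was 2.19 at day 4, 0.80 at d2, 0.27 at d6p, 0.06 at d8 and 6.90 at d12c, and that of *Rps2* was -1.12, 0.13, -0.10, 0.48 and -0.75.

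Variation among the cells of each range was ranked by gene. Variance over mean was divided by its running median over genes of like mean, for genes with UMIs in at least 3 cells. In cells 1 to 48 the 6 highest were *Sst* (169 times the genes of like mean), *Ccl8*, *Car3* (carbonic anhydrase 3), *Krt18*, *Ccl7* and *Angptl7* (an angiopoietin-like secreted protein). In cells 49 to 88 they were *Rn45s* (the ribosomal RNA precursor, 78.4 times), *Cryab*, *Tac1*, *Pnoc*, *Spp1* and *Stmn2*. At 100000 UMIs 5 of the first 6 and all 6 of the second stayed among the highest 6. By the SD of log2 values, which weighs a single cell less, 2 and 1 of them did, and *Acta2* and *Cryab* were among the highest 6 in both ranges.

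*Sst*, the gene of somatostatin, had the highest relative variance. Cell 31 held 1404 UMIs, 90% of the sum of its range, followed by cells 36 and 47 with 60 and 51. Of the other cells most had 0 to 2 UMIs, with 24 of 39 having any and a median of 1. In cells 49 to 88 *Sst* had 0 UMIs in all 34. Against a floor of 3 UMIs over that range the mean of 40.0 UMIs was at least 453-fold higher, and without cell 31 the mean of 4.11 UMIs was at least 46.5-fold higher. The other cells of the range held a mean of 0.292% of the level of cell 31, and the part of that cell's RNA in their counts was not tested. On other days *Sst* reached a mean of 109.7 UMIs at d8 and at most 0.444 at d0, d1, d2, d3, d5 and d6p.

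Of 13 tested peptide and prohormone genes 2 were called higher in cells 1 to 48, *Sst* and *Calcb*, and 0 lower. Both could be tested only through their level in the first range, with means of 40.0 and 13.5 UMIs against 0 and 0.912. The median log2 ratio of the list was -1.27, where 5 of the 13 genes had a range at 0 UMIs. Summed per cell, the 26 listed genes had medians of 86 and 58 UMIs, with 66.3% of pairs higher in the first range. *Calcb*, the gene of beta-CGRP, was called higher in the first range, with UMIs in 28 of 39 and 3 of 34 cells. It was highest in cells 47, 14 and 22, at 175, 132 and 97 UMIs. *Calca*, its neighbor on chromosome 7 (mm9 121774994 to 121779871 and 121862157 to 121866879), was highest in cell 31 at 254 UMIs and in cell 22 at 99. The 2 genes are close copies, and how reads were shared between them is not stated. *Calca* missed the call with 79.7% of pairs. In both genes a few cells carried most of the level and many others had 1 to 3 UMIs.

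The promoters of *Sst*, *Vip* and *Calca* are shown because Forskolin raises cyclic AMP and single cells held much of the UMIs of these 3 peptide genes in the first range (90% of *Sst*, 64.6% of *Vip* and 36.2% of *Calca*). Each is 250 bases before to 50 after the start of transcription, 5′ to 3′ on the strand of the gene, from RefSeq on GRCm38.p6. Capitals mark the cyclic AMP response element TGACGTCA and its shorter form TGACG, searched on both strands, where the longer motif contains the shorter.
Sst, chr16:23890795-23891094, minus strand: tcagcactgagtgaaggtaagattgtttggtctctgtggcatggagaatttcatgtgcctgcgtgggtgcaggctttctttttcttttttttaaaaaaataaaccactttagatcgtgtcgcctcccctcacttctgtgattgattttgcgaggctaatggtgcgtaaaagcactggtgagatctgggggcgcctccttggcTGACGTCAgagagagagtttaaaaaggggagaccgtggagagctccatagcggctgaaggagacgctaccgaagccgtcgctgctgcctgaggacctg
Vip, chr10:5638968-5639267, plus strand: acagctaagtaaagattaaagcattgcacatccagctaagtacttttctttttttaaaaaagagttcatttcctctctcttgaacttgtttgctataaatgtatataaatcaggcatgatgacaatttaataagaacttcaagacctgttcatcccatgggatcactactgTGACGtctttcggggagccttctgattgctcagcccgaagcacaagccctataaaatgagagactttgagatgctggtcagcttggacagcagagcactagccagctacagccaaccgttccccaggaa
Calca, chr7:114636308-114636607, minus strand: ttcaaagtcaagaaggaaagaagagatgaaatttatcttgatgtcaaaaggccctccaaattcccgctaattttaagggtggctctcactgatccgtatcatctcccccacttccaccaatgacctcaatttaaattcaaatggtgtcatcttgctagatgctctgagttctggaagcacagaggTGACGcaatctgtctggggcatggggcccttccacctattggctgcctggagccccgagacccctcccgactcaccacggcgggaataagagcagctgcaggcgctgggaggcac

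The full element was found in the *Sst* promoter, from 48 bases before the start, and in 588 (1.79%) of 32851 promoters of the same length. The short form was found once in the *Vip* promoter, 79 bases before the start, and once in that of *Calca*, 65 bases before it, and in 20.8% of all promoters. These matches describe sequence and not binding. On the cyclic AMP list as a whole 1 gene was called higher (*Sst*) and 1 lower (*Stc1*) of 19 tested, and *Crem*, itself a target of CREB, had means of 5.36 and 4.97 UMIs.

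*Penk*, which encodes the enkephalins, was the one prohormone found in all 73 cells. It went from 8 to 1222 UMIs (median 58) in the first range and from 1 to 469 (median 10.5) in the second, and with 75.5% of pairs it was not called. It made up 63.0% and 58.2% of the UMIs of the 26 listed peptide genes. Its mean was 4.58 UMIs at d0 and 44.8 to 85.5 at d2, d3, d5 and d6p. The highest cell, number 38, also held the highest *Vip*, at 64 UMIs. *Penk*, *Nts*, *Cck*, *Scg2* and the other genes and cells in this and the following paragraph that the ranks do not give were chosen after their values were seen.

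Further peptide genes had their highest level in cells 49 to 88. *Nts*, the gene of neurotensin, had UMIs in 15 of 34 of these cells, highest in cell 51 (162), cell 84 (119) and cell 49 (67), and 0 UMIs in all 39 cells of the first range, so that its mean of 14.5 UMIs was at least 188.5-fold higher than a floor of 3 UMIs over that range. It missed the call because most cells of both ranges were at 0. In the number ranges of the other days its mean was at most 2.76 UMIs. *Tac1*, the precursor of substance P, had 207 UMIs in cell 64 and at most 13 in any other. *Pnoc*, the precursor of nociceptin, had 162 UMIs in cell 58, which also held the highest *Penk* of its range at 469. *Cck*, the gene of cholecystokinin, had 108 UMIs in cell 75, which also held 571 of *Cryab*. Both were also found in the first range, with 40 UMIs of *Pnoc* in cell 46 and 35 of *Cck* in cell 35, and without the highest cell of each range their means were 0.737 and 0.636 UMIs for *Pnoc* and 0.447 and 0.758 for *Cck*.

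Cell 53 held some genes known from neurons together. It had 176 UMIs of *Stmn2* and 82 of *Stmn4*, which bind tubulin in growing neurites, 81 of the neuronal tubulin *Tubb3*, 103 of the reticulon *Rtn1* and 129 of the secretogranin *Scg2*. It also had the highest *Rn45s*, at 3913 UMIs. Of the *Stmn2* UMIs of its range it held 71.8%, and of *Scg2* 89.0%. The neural and glial list of 9 genes, which holds *Tubb3*, summed to at most 85 UMIs in any cell of this range. Its other members therefore added little in cell 53. *Gap43*, a protein of growth cones, had 103 UMIs there but means of 53.9 and 26.4 UMIs in the ranges as a whole. A high *Rn45s* was also found in cell 64, at 1745 UMIs, where the median of the range was 205.5. Genes and cells in this and the following paragraph that the ranks do not give were chosen after their values were seen.

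Cell 77 held the label gene *Mmp13* at 48 UMIs, with 204 of *Spp1*, 88 of the transcription factor *Osr1*, 84 of *Angptl7* and 72 of *Akr1c18*, a steroid dehydrogenase. It accounted for all *Mmp13* UMIs of its range, 75.6% of *Spp1* and 82.2% of *Osr1*. *Osr1* had UMIs in 9 of 34 cells of the second range and in 15 of 39 of the first, where its highest level was 18. In the first range cell 13 held 393 UMIs of *Car3*, and cell 9 held 141 of *Krt18*, a keratin of simple epithelia, with 919 of *Penk*.

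**Figure D5:**
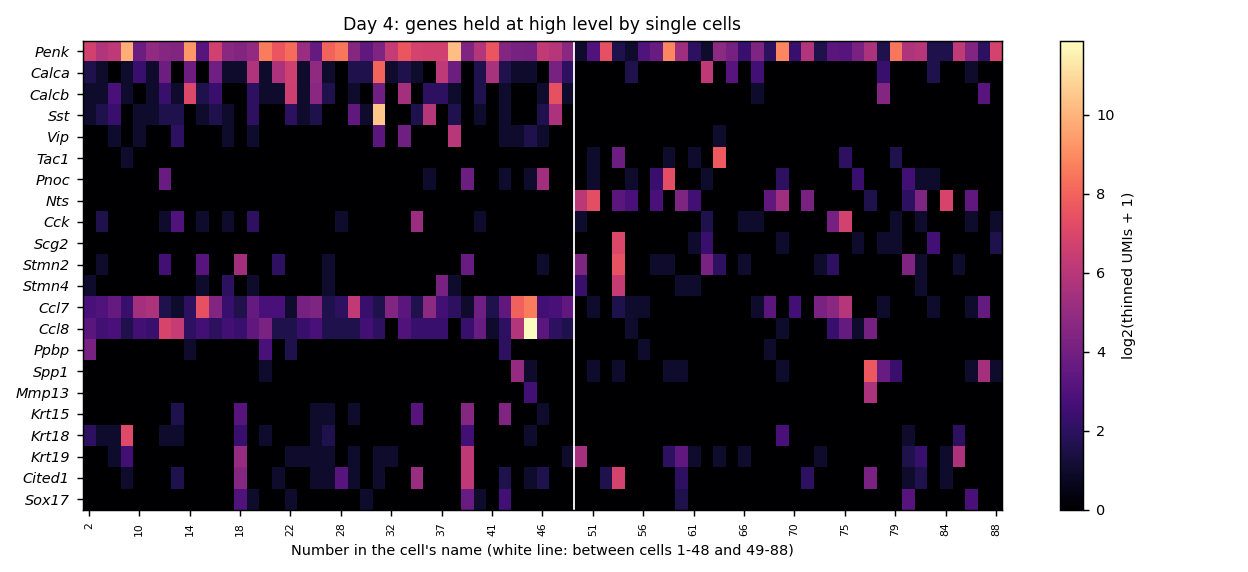
Level of 22 genes (rows) in the 73 day 4 cells (columns, in order of their number), as log2(thinned UMIs + 1) in color, with a white line between cells 1 to 48 and 49 to 88. *Penk* and, left of the line, *Ccl7* and *Ccl8* were in most cells, and bright single fields show genes such as *Sst* (1404 UMIs in cell 31) and *Tac1* (207 in cell 64).

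XEN master genes were sparse at day 4. *Sox17*, the endoderm transcription factor, had UMIs in 7 of 39 cells of the first range (17.9%) and in 3 of 34 of the second (8.82%), with highest levels of 12 and 8 UMIs. *Sall4* had UMIs in 4 and 3 cells, with at most 4, *Gata6* in 5 and 1 and *Sox7* in 4 and 2. *Gata4* and *Foxa2* had 0 UMIs in all 73 cells. All 6 of these genes had means under 1 UMI in both ranges and were not compared between them. *Sox17* stood at a mean of 0.718 and 0.471 UMIs, against 0.162 at d3, 0.886 at d5 and 49.1 at d20.

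At least 5 UMIs of *Sox17* were found in cells 39, 18 and 42 of the first range (12, 7 and 5 UMIs) and in cells 80 and 86 of the second (8 and 6). Cells 39 and 18 also held *Cited1*, a transcriptional coregulator on the XEN list, at 72 and 23 UMIs, and the keratin *Krt19* at 71 and 32. *Cited1* and *Krt19* were chosen after their values in these cells were seen. *Krt15* was at 23, 8 and 20 UMIs in cells 39, 18 and 42, which include its highest levels. In the 32 cells of the first range without *Sox17* the median of *Krt19* was 0 and its highest level 5, and that of *Krt15* was 0 and 8. In cells 80 and 86 *Krt19* was at 2 and 0 UMIs and *Krt15* at 0 in both. *Cited1* and *Krt19* were not bound to *Sox17* in either range. Cell 42 held 2 UMIs of *Cited1* and 0 of *Krt19*. Of the 32 cells of the first range without *Sox17*, 1 held 34 UMIs of *Cited1*. In the second range cell 53 held 112 UMIs of *Cited1* and cell 85 held 51 of *Krt19*, each with 0 of *Sox17*. Fibroblast genes were present beside *Sox17*, with *Col1a1* at 16 to 46 UMIs and *Twist2* at 5 to 40 in the 5 cells. In cells 18, 39 and 42 *Col1a1* was at 20, 31 and 16 UMIs, under the lower quartile of their range (56.5). Cell 18 had 3 UMIs of *Dcn*, the lowest of its range, and 0 of *Prrx1*. In cells 39 and 42 *Dcn* was at 59 UMIs, the median of the range, and at 20, with *Prrx1* at 4 and 6. *Twist2* was at 28, 16 and 40 UMIs in cells 18, 39 and 42.

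Which cells of the first range resembled earlier days was also seen. The 6 cells nearest to d2 or d5 (numbers 18, 30, 32, 33, 40 and 41) each had at least 10 UMIs of *Mki67*, *Top2a* and *Cdk1* together, with a median of 38.5 UMIs, whereas 4 of the 33 cells nearest to d6p or d8 did, with a median of 2. Their *Dcn* median was 48 UMIs and their *Mgst1* median 17, against 59 and 26 in the 33 and 1 and 1 in the 31 cells of the second range nearest to d2, d3 or d5. *Dusp6* had a median of 0 in both sets of the first range. For these 3 genes the 6 cells were nearer to the rest of the first range than to the second. The same held, in the order of these 3 sets, for *Rps2* (86, 115 and 252), *Ccnd1* (11.5, 7 and 29) and *Phlda1* (1, 0 and 8). It also held for *Cxcl14* (8, 4 and 0) and *Igfbp5* (4.5, 8 and 0). For *Lum* (medians of 7.5, 19 and 0) and *Malat1* (1102, 1787 and 695) the 6 cells were nearer to the second. All genes of this paragraph that were compared between the sets, except *Malat1*, had been called between the ranges with the 6 cells included. Their nearness to the first range was thus in part fixed by the choice of genes, and no conclusion is drawn from it.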

How the data were processed

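The deposited table holds counts of UMIs per gene and cell, which the authors made by splitting reads by cell barcode, trimming them, aligning them to the mouse transcriptome (mm9) and removing duplicates by UMI. The aligner is not given in the sources used here. All 23201 genes and 92 spike-in rows hold whole numbers. Of the genes 4 duplicate rows were left out, and 26 have names turned into dates. All 808 cell names differ. No cell could be assigned to 1 of the 10 sequenced samples, and the barcode annotation was not analysed here.

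Cells with at least 4000 detected genes were thinned at random, without replacement, to 50000 UMIs of genes. Genes with a mean of at least 1 UMI in either range were compared by the ratio of means (pseudocount 0.5) and the share of cell pairs, ties counting 0.5. Intervals are exact at 95% (Poisson for sums, Clopper-Pearson for shares) and cover counting error only, and a range at 0 was given a floor of 3 UMIs over its cells. The genes named are the 5 label genes, 10 master genes of XEN cells and fibroblasts (a list made for this comparison that holds those the study names), the 12 called genes of largest ratio in each direction, the 6 of highest relative variance in each range and up to 4 called members of each of 29 lists. The members and lists were chosen with earlier results of these data known. Depth, cell and gene filters, pseudocount, scaling, fold and pair conditions were varied. The comparisons with d2, d6p and d8, the nearest day, and the fits to cells with few cycle UMIs or of like depth were chosen after seeing the data. Python 3.11.15, numpy 2.4.6, pandas 2.3.3, scipy 1.17.1 and matplotlib 3.10.9 were used, and edgeR 4.0.16 (R 4.3.3) only for TMM factors.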

Additional observations from a re-analysis of the deposited data

How the results depend on the processing

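Of the 53 genes called higher and 43 called lower in cells 1 to 48, thinning to 20000 UMIs left 21 and 17, of which 20 and 11 were among the first calls. At 100000 UMIs 67 genes were lower, without thinning 126 were higher, and with a pseudocount of 2 UMIs 27 were lower. Scaling by the median of ratios gave 85 and 16, and TMM factors 83 and 17. Spike-in RNAs, applied to the unthinned counts of all kept cells, gave 366 and 9. A 4-fold limit gave 25 and 5, and no condition on pairs 353 and 461. Cells of 200000 to 800000 UMIs, a choice made after seeing the data, gave 83 and 124. Another random draw of the thinning gave 49 and 34, with 38 and 23 genes shared, so single calls near the limits depend on the draw. The other alternatives stayed within 1.5 times. Against the neighbouring days, 20000 UMIs gave 48 genes between cells 1 to 48 and d5, and 15 and 23 between cells 49 to 88 and d3 and d5. At 100000 UMIs the last of these was 69. With a 4-fold limit there were 26 and 12 for cells 1 to 48 against d3 and d5, and 7 and 9 for cells 49 to 88. The cause of these shifts was not tested. For the 37 named genes that were called, 0 of 555 values changed sign, and 275 moved by more than the allowed spread. No paired analysis was possible because the cell names hold no batch. At 50000 UMIs a gene with 0 UMIs in a range may still be expressed there.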
